A study of Homo sapiens with 6 samples.

Results

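Tight junctions seal the space between neighbouring epithelial cells and set which ions and molecules pass between them. Claudins are small proteins that span the membrane several times and form the strands of the junction; some tighten the barrier and others form pores. Occludin sits in the same strands, and the zonula occludens proteins bind claudins and occludin inside the cell and tie them to actin. The 10 genes described here are 7 claudins (CLDN1, CLDN2, CLDN3, CLDN4, CLDN7, CLDN12 and CLDN18), occludin (OCLN) and the zonula occludens genes TJP1 and TJP3. They were chosen by name, and all 10 were found among the 19402 genes of the deposited count table. Their transcripts were counted in 6 poly(A) RNA-seq libraries of CFPAC1, an established human cell line grown from a pancreatic ductal adenocarcinoma.

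The WT group is 3 pools of clones isolated by dilution after infection with a vector that the labels spell lentiCRIPSv2. The IRF1-KO group is 3 pools isolated in the same way after infection with that vector carrying wild-type Cas9 and a guide to IRF1, an interferon-induced transcription factor. No interferon treatment is listed for these libraries. How many clones a pool holds is not stated, and whether pools were grown separately is not stated either. The p-values therefore reflect only the variation among these 6 pools, which may be technical. In bulk RNA from a pool, a higher level from more expressing cells cannot be told apart from more RNA per cell.

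Where 3 values of a group are given, they stand in the order of replicates 1, 2 and 3. Total counts ranged from 16413682 to 28258075 per library. Of the 10 ductal epithelium markers 9 had at least 1 TPM (a level per transcript length, on a scale with the same total in every library) in every library, led by KRT19 at 2150 to 3580 TPM. The summed TPM of 10 fibroblast markers was 15.9 to 24.7 in WT and 17.6 to 31.9 in IRF1-KO, and that of 8 endothelium markers was 10.5 to 14.4 and 10.6 to 17.6. Of 8 leukocyte markers CD68 had 225 to 321 TPM and the other 7 together at most 6.15, with MS4A1 at 0. The 10 acinar and islet markers summed to at most 2.60 TPM, with CPA1, INS and SST at 0. Transcript of IRF1 itself was not reduced in pools labelled IRF1-KO but 1.43-fold higher (117 to 132 CPM, against 82.6 to 91.3 in WT), a difference that DESeq2 called (adjusted p = 0.00105) and edgeR did not (adjusted p = 0.135). This count over all exons does not check the edit. IRF1-KO therefore stands for the label of a pool throughout.

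No tight junction gene of the 10 separated the groups. In CPM (reads of a gene per library, scaled by TMM for library size) the WT and IRF1-KO pools overlapped in 10 of 10 genes; over all 13388 tested genes 14.8% did not overlap. Of 9 members counted deeply enough to be tested, 0 had an adjusted p under 0.05 (quasi-likelihood test of edgeR, Benjamini-Hochberg over all tested genes), against 0.127% of all tested genes. At an unadjusted p of 0.05 there was 1, CLDN3, against 9.14% of all tested genes. By DESeq2 there was also 1, again CLDN3, against 2.48%. The 10 genes compared for overlap include CLDN18, which was not tested. A list this small cannot set any of these counts apart from the background. The median log2 fold change of IRF1-KO over WT was −0.09 over the 9 members and −0.02 over all tested genes. What stood out in the values was the spread between pools of the same group, which was wider than in at least 86.1% of tested genes for 7 of the 9 and narrow for CLDN12 and TJP1.

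**Figure D1:**
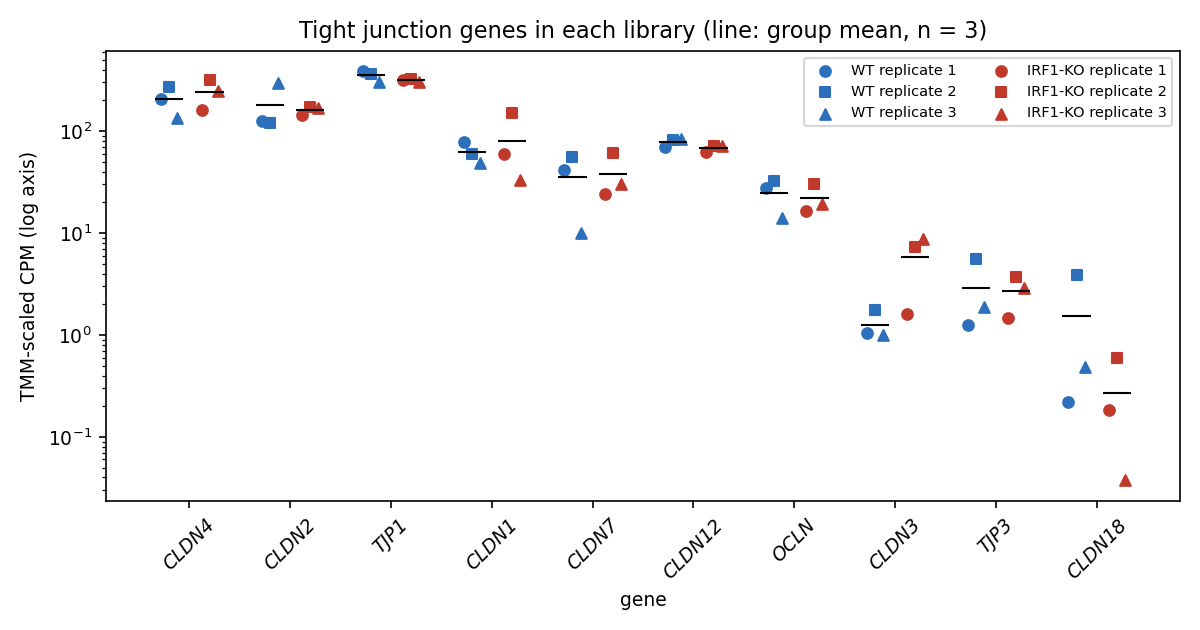
TMM-scaled CPM on a log axis for each of the 10 genes, ordered by level per length; blue marks are the 3 WT pools, red marks the 3 IRF1-KO pools, marker shape gives the replicate number and black lines are group means. The groups overlap in every gene, and CLDN3 shows 2 IRF1-KO pools at 7.23 and 8.73 CPM beside the other at 1.59.

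Per transcript length, the most abundant members were CLDN4 and CLDN2. Median levels over the 6 libraries ran from CLDN4 (183 TPM) and CLDN2 (175 TPM) through TJP1 (109), CLDN1 (63.0), CLDN7 (53.8), CLDN12 (40.8), OCLN (13.1), CLDN3 (5.05) and TJP3 (2.31) to CLDN18 (0.354). Between neighbours in this order the ranges over libraries were apart at 2 steps, from CLDN2 (136 to 326 TPM) to TJP1 (102 to 127) and from CLDN12 (35.9 to 47.4) to OCLN (7.85 to 18.5). The ranges of the other 7 neighbouring pairs overlapped. In 6 of these pairs the order turned in 1 or 2 libraries, while TJP3 was above CLDN18 in each of the 6 libraries. The lengths used are all exonic bases of a gene in the table, which for genes with long alternative exons, such as CLDN4, lowers the level.

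Promoters of the 10 genes, 250 bases before to 50 after the RefSeq start on GRCh38.p14, were searched on both strands for 3 motifs of factors that act on interferon or epithelial genes. The IRF core GAAANNGAA is a short form of the element that IRF1 and related factors bind; it occurred in 2 members, CLDN7 and CLDN12, and in 7.02% of 15238 promoters. The E-box CACCTG, bound by the repressors SNAI1, SNAI2, ZEB1 and ZEB2, occurred in 4 members, CLDN3, CLDN18, OCLN and TJP1, and in 19.8% of all promoters. The Grainyhead-like core AACCNGTT occurred in 0 members and in 1.61% of all promoters. The matches are shown here because these are the places where the 10 promoters hold the letters of an IRF or E-box motif. Capitals mark the match, lower case the flanking bases, and each line reads 5′ to 3′ along the gene; an E-box on the opposite strand reads CAGGTG.
CLDN7, IRF core, chr17:7263334-7263362, minus strand: gcccgggaggGAAAGAGAAacgggcgagt
CLDN12, IRF core, chr7:90403298-90403326, plus strand: tggaggcagaGAAAGGGAAgggcaggagg
CLDN3, E-box, chr7:73770221-73770244, minus strand: aagccacaggCAGGTGcaggcgca
CLDN18, E-box, chr3:137998707-137998732, plus strand: agggcaagccCAGGTGgcactggtga
OCLN, E-box, chr5:69492504-69492529, plus strand: atccgagtttCAGGTGaattggtcac
TJP1, E-box, chr15:29969122-29969147, minus strand: ggccggcgcgCAGGTGgcccggcctc
Counted from the RefSeq start, the IRF core began at −139 in CLDN7 and −153 in CLDN12, and the E-box at 37 in CLDN3, −99 in CLDN18, −33 in OCLN and −88 in TJP1. For TJP1 this start lies upstream of the gene as counted. The whole searched TJP1 stretch (29969000 to 29969299) is beyond the outer end of the counted gene at 29968865. The windows of CLDN7, CLDN12 and OCLN lie inside the gene as the count table spans it, since the table also holds transcripts that start further upstream. The CLDN3 window lies inside the gene too, since its match is after the start. The 95% intervals of the group difference include 0 for both genes whose promoter holds the IRF core, CLDN7 and CLDN12. The same holds for every other tested member but CLDN3, and any relation of the motifs to the difference was not tested. A match is a stretch of letters and no measurement of binding.

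CLDN3, a claudin counted as barrier-forming, had the largest group difference among the 9 tested members, and it was carried by 2 of the 3 IRF1-KO pools. CLDN3 (ENSG00000165215.6; GRCh38 chromosome 7, 73768997 to 73770270, minus strand) is a single exon of 1274 bases. Its reads numbered 19, 32 and 21 over the WT pools and 26, 207 and 233 over the IRF1-KO pools. Scaled, the WT pools were at 1.04, 1.74 and 1.01 CPM, and the IRF1-KO pools at 1.59, 7.23 and 8.73 CPM. IRF1-KO replicates 2 and 3 lay above every WT pool, and IRF1-KO replicate 1 lay inside the WT range. Mean levels were 1.26 ± 0.414 CPM for WT and 5.85 ± 3.77 CPM for IRF1-KO (SD, n = 3 each).

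The fitted log2 fold change of CLDN3 was 2.22 ± 0.61 (SE; 95% interval 0.79 to 3.64), 4.65-fold. It missed the threshold with edgeR (adjusted p = 0.283) and passed it with DESeq2 (adjusted p = 0.0170). Over the 14 alternatives that gave CLDN3 a value the adjusted p ran from 0.0170 to 0.659, and the log2 fold change from 1.26 to 2.68, always higher in IRF1-KO. The CLDN3 transcript is 69.2% G and C, where the median tested gene has 48.5%. Among the 477 tested transcripts above 65% GC the log2 fold change had a median of 0.52. Their median deviation in log2 CPM from the mean of the libraries was −0.59, −0.13 and −0.10 over the WT pools and 0.10, 0.46 and 0.31 over the IRF1-KO pools. With a correction for GC content the log2 fold change of CLDN3 was 1.42 ± 0.53 (adjusted p = 0.586, edgeR). The part of GC content in the difference was not tested beyond this correction.

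CLDN4, which lies 29272 bases from CLDN3 on the same chromosome (ENSG00000189143.9; 73799542 to 73832693, plus strand), had a smaller group difference, though the contrast between the genes was not tested. CLDN4 is a barrier claudin abundant in pancreatic cancer. It measured 208, 271 and 135 CPM across the WT pools and 162, 318 and 248 CPM across the IRF1-KO pools. IRF1-KO replicate 2 was the highest library and WT replicate 3 the lowest, with the groups overlapping over most of their range. The means were 205 ± 68.3 and 242 ± 77.9 CPM (SD, n = 3 each), a log2 fold change of 0.24 ± 0.31 (SE; 95% interval −0.49 to 0.98; edgeR adjusted p = 0.882). This value rested on single pools, at 0.00063 on leaving out IRF1-KO replicate 2, 0.038 on leaving out WT replicate 3, 0.49 on leaving out IRF1-KO replicate 1 and 0.50 on leaving out WT replicate 2. IRF1-KO replicate 3, with 8.73 CPM the highest library for CLDN3, was 1 of 2 pools high for CLDN3, while for CLDN4 it lay below WT replicate 2.

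The promoters of these neighbours are printed as a description of how they differ in CpG content. The correction above used the GC content of the transcript, and any relation of promoter CpG to the group difference was not tested. Over the 300 bases the CLDN3 promoter held 24 CpG pairs at 72.0% GC, and the CLDN4 promoter held 5 at 59.0% GC, against a median of 63.0% GC over all promoters. The CLDN4 stretch lies inside the gene as the count table spans it, since the table also holds CLDN4 transcripts that start further upstream. The 100 bases before each start are printed with CpG pairs in capitals, 9 in CLDN3 and 2 in CLDN4.
CLDN3, chr7:73770271-73770370, minus strand: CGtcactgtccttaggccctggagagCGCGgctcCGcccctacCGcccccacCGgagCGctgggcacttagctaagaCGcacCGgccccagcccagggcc
CLDN4, chr7:73830896-73830995, plus strand: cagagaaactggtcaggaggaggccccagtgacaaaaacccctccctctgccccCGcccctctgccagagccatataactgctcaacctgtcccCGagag

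CLDN7, a claudin of epithelial lateral membranes, had the widest spread between pools of the tested members. CLDN7 (ENSG00000181885.18; chromosome 17, 7259903 to 7263983, minus strand) measured 41.2, 55.8 and 10.1 CPM across the WT pools and 23.9, 60.9 and 30.1 CPM across the IRF1-KO pools. WT replicate 3 stood lowest, 5.50-fold below WT replicate 2, and IRF1-KO replicate 2 stood highest. The log2 fold change was 0.11 ± 0.62 (SE; 95% interval −1.37 to 1.58; edgeR adjusted p = 0.977), which spans folds of 0.388 to 2.99. Leaving out WT replicate 3 gave −0.32, and leaving out IRF1-KO replicate 2 gave −0.40. Its SD between pools of a group was 1.05 in log2 CPM, larger than in 97.1% of tested genes, whose median was 0.21. The table counts 38 exonic bases of CLDN7 also for ELP5 on the opposite strand.

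CLDN1, a claudin required for the epidermal barrier, was high in a single IRF1-KO pool. CLDN1 (ENSG00000163347.6; chromosome 3, 190305707 to 190322446, minus strand) measured 78.3, 59.0 and 48.8 CPM across the WT pools and 59.2, 149 and 33.4 CPM across the IRF1-KO pools. IRF1-KO replicate 2 was the highest library and IRF1-KO replicate 3 the lowest, so both ends of the range were in the same group. The log2 fold change was 0.38 ± 0.52 (SE; 95% interval −0.86 to 1.61; edgeR adjusted p = 0.891), and it was −0.43 without IRF1-KO replicate 2.

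CLDN2, which forms pores for cations and water and is typical of leaky epithelia, went the other way from CLDN4 and CLDN7 in WT replicate 3. CLDN2 (ENSG00000165376.10; chromosome X, 106900164 to 106930861, plus strand) measured 126, 120 and 294 CPM across the WT pools and 143, 171 and 167 CPM across the IRF1-KO pools. WT replicate 3 was the highest library and the other WT pools were the lowest, with the 3 IRF1-KO pools between them. The log2 fold change was −0.17 ± 0.34 (SE; 95% interval −0.98 to 0.65; edgeR adjusted p = 0.932). Without WT replicate 3 it was 0.40 (adjusted p = 0.247), so that pool decides the sign in this fit. CLDN2 shares 341 exonic bases with genes on the opposite strand (MORC4 and RIPPLY1 overlap it), and reads there cannot be assigned without the strand setting of the counting.

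CLDN12, a broadly expressed claudin that lacks the usual C-terminal binding site for zonula occludens proteins, was steady. CLDN12 (ENSG00000157224.16; chromosome 7, 90383721 to 90513402, plus strand) measured 69.2, 82.0 and 83.5 CPM across the WT pools and 62.3, 70.7 and 71.9 CPM across the IRF1-KO pools. All IRF1-KO pools were under WT replicates 2 and 3, and IRF1-KO replicates 2 and 3 were above WT replicate 1. The log2 fold change was −0.20 ± 0.12 (SE; 95% interval −0.47 to 0.08; edgeR adjusted p = 0.713). Its SD between pools was 0.13 in log2 CPM, larger than in 22.1% of tested genes. CLDN12 shares 548 exonic bases with GTPBP10 and CDK14 on the same strand.

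CLDN18, a claudin of stomach and lung epithelium that appears in pancreatic tumours, was scarce in all libraries and had under 1 CPM in 5 of the 6. CLDN18 (ENSG00000066405.13; chromosome 3, 137998735 to 138033655, plus strand) held 4, 71 and 10 reads over the WT pools and 3, 17 and 1 over the IRF1-KO pools. WT replicate 2 held most of the reads at 3.86 CPM, and the other libraries were between 0.0375 and 0.593 CPM. The gene did not pass the filter on low counts, so it has no test in the fit over tested genes. With no filter its log2 fold change was −2.40 ± 1.25 (SE; edgeR adjusted p = 0.760), and it was −0.33 in the fit without WT replicate 2, in which the gene passed the filter. The stomach and lung forms of CLDN18, which start at different first exons, are summed in this count.

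Occludin, the first integral membrane protein found at tight junctions, followed CLDN4 and CLDN7 in its high and low pools. OCLN (ENSG00000197822.11; chromosome 5, 69492292 to 69558104, plus strand) measured 27.8, 32.3 and 14.0 CPM across the WT pools and 16.5, 30.6 and 19.4 CPM across the IRF1-KO pools. WT replicate 3 and IRF1-KO replicate 1 were the lowest, as in CLDN4 and CLDN7, and WT replicate 2 and IRF1-KO replicate 2 were the highest of their groups in all 3 genes. The log2 fold change was −0.15 ± 0.35 (SE; 95% interval −0.97 to 0.67; edgeR adjusted p = 0.938), turning to 0.09 on leaving out WT replicate 2 and to 0.039 on leaving out IRF1-KO replicate 1. GENCODE 29 lists a pseudogene, OCLNP1, on the same chromosome, and any reads shared with it would make the OCLN value uncertain.

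TJP1 and TJP3 encode ZO-1 and ZO-3, scaffolds that bind the tails of claudins, and they differed in both level and spread. TJP1 (ENSG00000104067.16; chromosome 15, 29699367 to 29968865, minus strand) measured 387, 365 and 304 CPM across the WT pools and 316, 323 and 306 CPM across the IRF1-KO pools. WT replicates 1 and 2 were the highest and the other 4 libraries lay within 304 to 323 CPM. The means were 352 ± 43.4 and 315 ± 8.94 CPM (SD, n = 3 each), a log2 fold change of −0.16 ± 0.12 (SE; 95% interval −0.44 to 0.12; edgeR adjusted p = 0.779). TJP3 (ENSG00000105289.15; chromosome 19, 3708362 to 3750813, plus strand) was scarce and measured 1.26, 5.55 and 1.87 CPM across the WT pools and 1.46, 3.70 and 2.92 CPM across the IRF1-KO pools. WT replicate 2 was again the highest library. Its log2 fold change was −0.09 ± 0.60 (SE; 95% interval −1.48 to 1.30; edgeR adjusted p = 0.978), turning to 0.79 on leaving out WT replicate 2 and to 0.22 on leaving out IRF1-KO replicate 1. In TJP3, 42 exonic bases overlap APBA3 on the opposite strand.

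**Figure D2:**
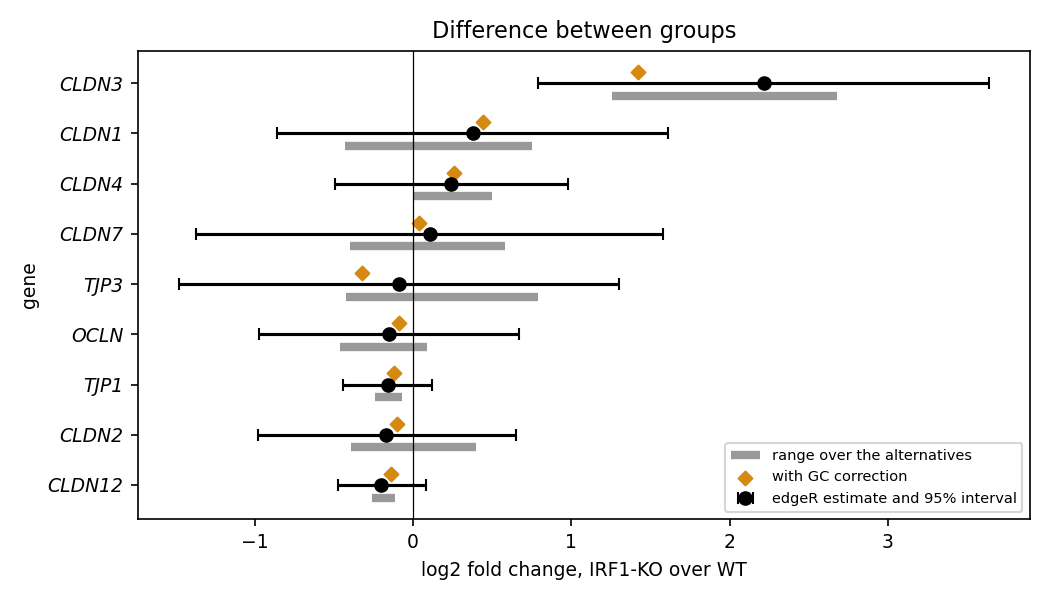
Log2 fold change of IRF1-KO over WT for the 9 tested genes; black points and bars are the edgeR estimate and its 95% interval, grey bars the range over the alternative analyses, and orange diamonds the value with the GC correction. The CLDN3 estimate of 2.22 has an interval that is unadjusted for the number of genes tested; the intervals of the other 8 genes include 0.

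The mix of claudins varied between single pools within a group. Among the 24 claudin genes counted, 13 were tested, 3 had no read in any library and 10 were under 1 TPM in every library. Summed claudin level was 607, 688 and 739 TPM over the WT pools and 622, 923 and 702 TPM over the IRF1-KO pools, and the 7 member claudins made up 70.1% to 82.8% of it. CLDN2 made up 22.5%, 19.9% and 44.1% over the WT pools and 26.1%, 20.8% and 26.8% over the IRF1-KO pools. WT replicate 3 therefore stood apart, with CLDN2 at 3.00 times the TPM of CLDN4, whereas this ratio lay between 0.612 and 1.22 in the other 5 libraries. In the same pool CLDN7 was 2.08% of the claudin sum, against 5.95% to 12.6% elsewhere.

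**Figure D3:**
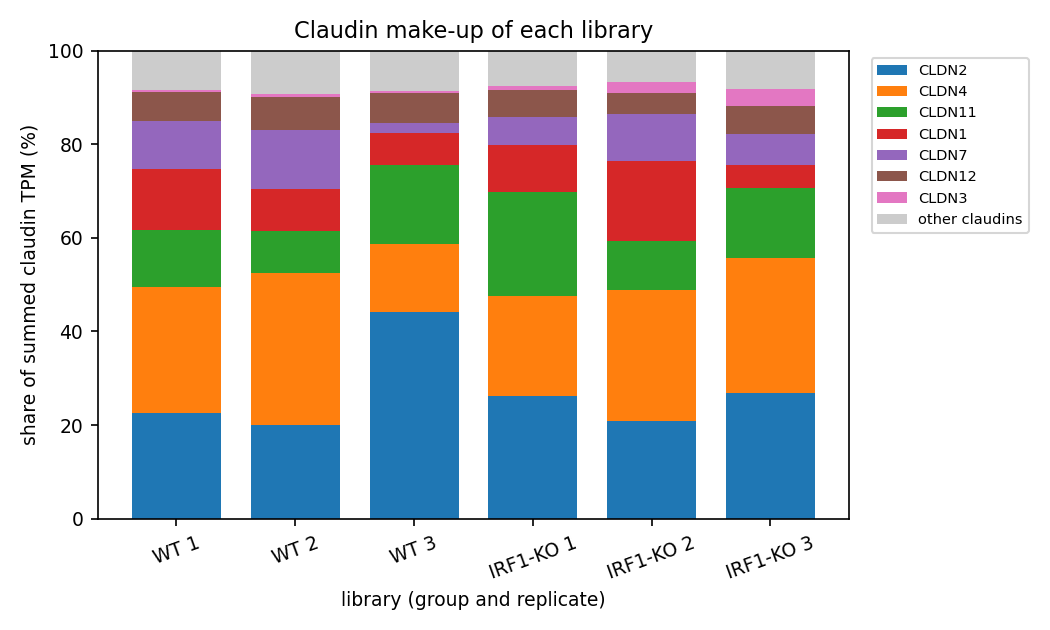
Share of the summed claudin TPM in each of the 6 libraries, in percent. CLDN2, CLDN4, CLDN11, CLDN1, CLDN7, CLDN12 and CLDN3 are drawn singly, and all other claudins are joined in grey. CLDN11 is shown for completeness. The grey part includes CLDN9, CLDN23 and CLDN10, whose mean shares of 2.56%, 1.81% and 1.5% exceed the 1.43% of CLDN3. CLDN2 takes 44.1% in WT replicate 3 and 19.9% to 26.8% in the other libraries.

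CLDN11, a claudin best known from myelin and testis, ranked after CLDN2 and CLDN4 in mean share of the claudin sum at 14.3%. It measured 75.0, 59.7 and 122 CPM across the WT pools and 134, 95.3 and 101 CPM across the IRF1-KO pools, with WT replicate 3 inside the IRF1-KO range (log2 fold change 0.36 ± 0.27, SE; edgeR adjusted p = 0.779). By mean TPM, CLDN9 and CLDN23 were the next claudins outside the 10, at 3.85 to 10.9 CPM and 4.39 to 11.3 CPM, with log2 fold changes of 0.43 ± 0.37 and −0.13 ± 0.37. By reads over all libraries CLDN10 (1176) was above CLDN9 (1029) and CLDN23 (958). Of 7 tested claudins outside the 10, 3 had positive and 4 negative values (median −0.13), and 0 passed the edgeR threshold (0.127% of all tested genes) or were under an unadjusted p of 0.05 (9.14% of all tested genes), counts that a list of 7 cannot set apart from the background.

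The other parts of the junction were described from lists of named genes. The 7 lists hold 126 tested genes outside the 10. By edgeR 0 of them passed; with an unadjusted p under 0.05 there were 4 with higher and 4 with lower values. DESeq2 passed 1, MMP2. Over all tested genes these shares were 0.127% by edgeR, 9.14% unadjusted and 2.48% by DESeq2, so the counts in the lists do not exceed the background. Among 13 tested membrane proteins other than claudins and occludin, 4 had positive and 9 negative log2 fold changes (median −0.13). Of these, F11R, which encodes the adhesion molecule JAM-A, had 171 to 360 CPM (−0.13 ± 0.28), and CXADR, the coxsackievirus and adenovirus receptor, averaged 88.2 ± 8.38 CPM for WT and 65.9 ± 17.0 CPM for IRF1-KO (SD, n = 3 each), with a log2 fold change of −0.42 ± 0.19. LSR, which marks corners where 3 cells meet, measured 48.5, 63.1 and 38.8 CPM across the WT pools and 61.3, 100 and 63.2 CPM across the IRF1-KO pools. IRF1-KO replicate 1 lay below WT replicate 2, and the log2 fold change of 0.58 ± 0.25 (SE, edgeR adjusted p = 0.541) was 0.19 with the GC correction, its transcript being 64.8% GC.

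Scaffold and plaque genes had the median closest to that of all tested genes among the 7 lists. Of 33 tested, 14 had positive and 19 negative values (median −0.03). The actin-binding protein gene CTTN had 336 to 383 CPM (−0.02 ± 0.11) and AMOTL2, an angiomotin family member, had 162 to 203 CPM (0.04 ± 0.12). RAB13, a small GTPase of junction trafficking, measured 158, 131 and 150 CPM across the WT pools and 126, 114 and 124 CPM across the IRF1-KO pools. Every IRF1-KO pool was below every WT pool, yet the log2 fold change of −0.27 ± 0.11 (SE) was not past the threshold (edgeR adjusted p = 0.524). In this list 4 genes had groups that did not overlap, RAB13 and, named after their values were seen, ARHGEF18, PARD3B and PARD6B, or 4 of 33 beside 14.8% of all tested genes.

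In adherens junctions and desmosomes 6 genes had positive and 15 negative values (median −0.09, 21 tested). DSG2, a desmosomal cadherin, had 663 to 934 CPM (−0.27 ± 0.13), and CTNNA1, which links cadherins to actin, had 664 to 816 CPM (−0.09 ± 0.11). JUP, which encodes plakoglobin, measured 507, 592 and 237 CPM across the WT pools and 404, 750 and 409 CPM across the IRF1-KO pools (log2 fold change 0.23 ± 0.39). Its lowest library was WT replicate 3 and its highest IRF1-KO replicate 2, the same 2 libraries as in CLDN4 and CLDN7.

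Regulators of the epithelial state gave 6 positive and 17 negative values among 23 tested (median −0.13). EPCAM, an epithelial adhesion molecule that binds CLDN7, measured 424, 414 and 197 CPM across the WT pools and 274, 285 and 337 CPM across the IRF1-KO pools (−0.21 ± 0.28). SPINT1, an inhibitor of the membrane protease matriptase, measured 214, 246 and 74.5 CPM across the WT pools and 130, 280 and 105 CPM across the IRF1-KO pools (−0.05 ± 0.52). WT replicate 3 was the lowest library for both, as for CLDN7. KLF5, a transcription factor of epithelial progenitors, had 217 to 273 CPM (−0.14 ± 0.11). Gastric lineage genes, a setting in which CLDN18 is normally expressed, gave 3 positive and 9 negative values among 12 tested (median −0.12). ANXA10 had 305 to 486 CPM (0.33 ± 0.17), AGR2 337 to 510 CPM (−0.14 ± 0.18) and TFF2, a gastric trefoil peptide, 30.2 to 66.0 CPM (−0.22 ± 0.29). These 3 were the highest of the list by mean TPM. Of its 17 genes 12 passed the filter on low counts, which CLDN18 did not pass.

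Repressors of epithelial genes and mesenchymal genes had 11 positive and 6 negative values among 17 tested (median 0.07). VIM, which encodes the filament protein vimentin, measured 1870, 2090 and 3600 CPM across the WT pools and 3040, 1710 and 2620 CPM across the IRF1-KO pools (−0.03 ± 0.30). CDH2, which encodes N-cadherin, measured 129, 109 and 258 CPM across the WT pools and 223, 200 and 204 CPM across the IRF1-KO pools (0.34 ± 0.31). Leaving out WT replicate 3 gave CDH2 0.84 (edgeR adjusted p = 0.0522), and leaving out WT replicate 2 gave 0.11. The matrix protein gene TGFBI had 1050 to 1800 CPM (0.10 ± 0.22). For VIM, CDH2 and TGFBI, WT replicate 3 was the highest library. MMP2, a gelatinase, measured 2.57, 1.58 and 2.16 CPM across the WT pools and 10.4, 3.07 and 6.40 CPM across the IRF1-KO pools, every IRF1-KO pool above every WT pool. Its log2 fold change of 1.65 ± 0.46 missed the edgeR threshold (adjusted p = 0.283) and passed with DESeq2 (adjusted p = 0.0329). MMP2 was the 1 gene of these 17 whose groups did not overlap. Over the 7 lists 11 of 126 tested genes did not overlap (8.73%), against 14.8% of all tested genes.

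The pools thus differed in which had the highest and lowest junction transcripts. Within WT, replicate 3 was the lowest pool in 6 of the 9 tested members and the highest in CLDN2 and CLDN12. It was also the lowest WT pool in 16 of 21 adherens junction and desmosome genes (76.2%) and in 16 of 23 epithelial regulators (69.6%), and the highest in 13 of 17 repressors and mesenchymal genes (76.5%). The other junction lists were more mixed. In scaffold and plaque genes WT replicate 3 was the lowest in 13 of 33 (39.4%) and WT replicate 1 in 14. WT replicate 3 was the lowest in 7 of 13 other membrane proteins and the highest in 4. For other claudins it was the lowest in 4 of 7 and the highest in 3. Over all tested genes it was the lowest WT pool in 32.4% and the highest in 35.5%. Within IRF1-KO, replicate 1 was the lowest pool in 7 of 9 members and the highest in 11 of 17 repressors and mesenchymal genes (64.7%, against 31.4% of all tested genes), and replicate 2 was the highest in 7 of 9 members (36.8% of all tested genes). The place of IRF1-KO replicate 1 varied between the other epithelial lists. It was the lowest pool in 5 of 21 adherens junction and desmosome genes (23.8%) and in 6 of 23 epithelial regulators (26.1%). In gastric lineage genes it was the lowest in 7 of 12 (58.3%), against 32.3% of all tested genes. IRF1-KO replicate 3 was the lowest in 14 of 23 epithelial regulators (60.9%, against 33.5% of all tested genes). These are counts over genes that share libraries, given as a description with no test, and their part in the group comparison was tested by leaving out single libraries only.

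**Figure D4:**
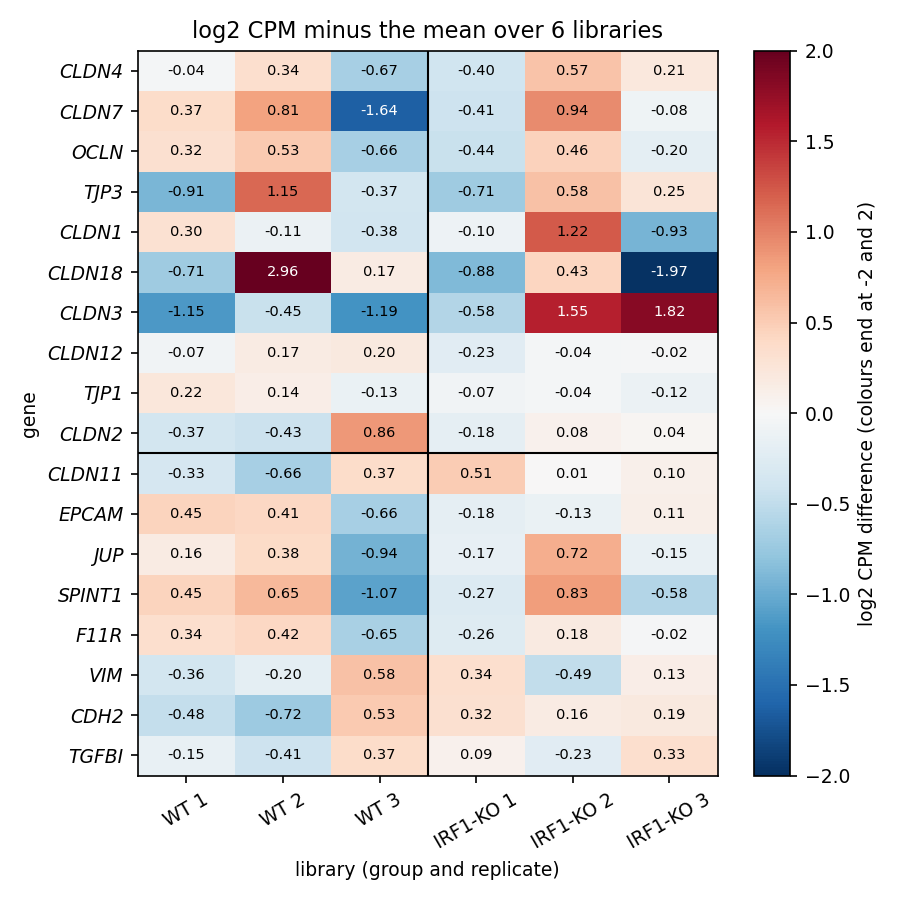
Log2 CPM of each gene minus its mean over the 6 libraries, with the 10 tight junction genes above the horizontal line and 8 other named genes below it; the vertical line divides WT from IRF1-KO pools. In WT replicate 3 CLDN7 is at −1.64 and SPINT1 at −1.07, while CLDN2 is at 0.86, VIM at 0.58 and CDH2 at 0.53. The 8 genes are a selection from the named genes, made by no set rule, and the named genes left out are mixed. Among the WT pools, replicate 3 was the lowest for DSG2 (899, 934 and 726 CPM) but the highest for CTTN (336, 363 and 383 CPM).

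For the 3 members with the widest range over libraries the most similar genes were sought among those with a mean of at least 2 CPM, by the root mean square difference of mean-centred log2 CPM over the 6 libraries. CLDN7 was closest to PRSS8, which encodes the membrane serine protease prostasin, at 0.09, followed by AZGP1 (0.17) and EVA1A (0.18). PRSS8 measured 47.5, 67.7 and 14.2 CPM across the WT pools and 28.7, 77.5 and 37.1 CPM across the IRF1-KO pools, the same order of libraries as CLDN7. CLDN3 was closest to VASN (0.48), ADAP1 (0.60) and SLC39A4 (0.62), whose transcripts are 66.2%, 66.7% and 66.6% GC. CLDN18 was closest to TNFSF14 (0.34), NEURL3 (0.63) and TYMP (0.67), each highest in WT replicate 2. Their transcripts are 50.9%, 60.1% and 70.0% GC, and those of PRSS8, AZGP1 and EVA1A 62.7%, 52.8% and 46.0%. Any relation of GC content to these patterns was not tested. Each search ran over 6 libraries and at least 12090 genes.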

How the data were processed

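The authors deposited 1 table of whole-number counts per gene with a column per library, with the column layout of featureCounts per the file headers. The submitters' processing notes name featureCounts 0.6.1, edgeR 3.2.2 and GRCh38. Which aligner, annotation and strand setting were used is not given in the sources used here. Lengths are the exonic bases the deposited table lists.

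Counts were fitted in R 4.3.3 with edgeR 4.0.16 (filterByExpr, TMM, robust quasi-likelihood F test, two-sided, Benjamini-Hochberg over 13388 tested genes, threshold 0.05). CPM are TMM-scaled, TPM were computed from counts and lengths, SE are those implied by the F statistic, and 95% intervals use the fitted degrees of freedom. Alternatives tried were scaling by RLE or by upper quartile, no filter or at least 5 CPM in 3 libraries, DESeq2 1.42.0, limma-voom 3.58.1, the replicate number as a block, a GC correction (natural spline, 5 degrees of freedom, GC of the longest coding transcript in GENCODE 29), both together, and leaving out each library. The procedure was also run on simulated counts, and the outcome is not given here. The fold changes to be recovered were set only in genes with a mean above 5 CPM. That run therefore does not cover scarcer genes such as CLDN3 and TJP3. Libraries of a group differed by more than sampling noise (chi-square per degree of freedom 27.1 to 57.2). Promoters came from RefSeq (GRCh38.p14), where all 10 genes matched.

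The members and lists were chosen with earlier results of these data known. Named were the 10 members, IRF1, and from each list the 3 genes of highest mean TPM and any gene past the threshold with edgeR or DESeq2; exceptions are stated where they occur.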

Additional observations from a re-analysis of the deposited data

How the results depend on the processing

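Across the 15 alternatives, of which 6 leave out a library, edgeR-based fits and limma-voom called 0 of the tested members in every case, and DESeq2 called 1 (CLDN3). Of the 13388 genes, 17 passed with the analysis as reported, 31 with no filter, 332 with DESeq2, 31 with the replicate block, 11 with the replicate block and GC correction together, and 3 to 91 without single libraries (5 on leaving out WT replicate 2, 91 on leaving out WT replicate 3, 3 on leaving out IRF1-KO replicate 1 or 3). The cause was not tested. Deviations of same-numbered pools correlated at −0.015, 0.253 and 0.057, and those of differently numbered pools at −0.295 to 0.245. Whether the numbers pair the pools cannot be told from so few values. The block called none of the tested members. In the repressor and mesenchymal list DESeq2 called 1 gene (MMP2), and in the gastric list 0 to 1 was called without single libraries (MUC5AC without WT replicate 3).

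CLDN3, CLDN4, CLDN12 and TJP1 kept their sign in all alternatives that gave a value. Without single libraries CLDN3 ranged from 1.81 to 2.68, CLDN4 from 0.00063 to 0.50, CLDN12 from −0.26 to −0.11 and TJP1 from −0.24 to −0.07, so the sign of CLDN4 carries little weight. CDH2, which also kept its sign, ranged from 0.11 to 0.84. Sign changes of other genes were all in values that missed the threshold. Without single libraries the log2 fold change ranged from −0.43 to 0.75 for CLDN1, −0.39 to 0.40 for CLDN2, −0.40 to 0.58 for CLDN7, −0.46 to 0.09 for OCLN, −0.42 to 0.79 for TJP3, −0.034 to 0.13 for AMOTL2, −0.36 to 0.26 for CLDN23, −0.08 to 0.043 for CTTN, −0.38 to 0.05 for F11R, −0.13 to 0.49 for JUP, −0.60 to 0.25 for SPINT1, −0.42 to 0.18 for TFF2, −0.06 to 0.38 for TGFBI and −0.20 to 0.33 for VIM. TJP3 was 0.18 with limma-voom and 0.07 with the replicate block. CLDN2 was 0.038 with the replicate block and GC correction together. CTTN was 0.016 with upper-quartile factors, 0.039 with the GC correction and 0.042 with both corrections, and VIM was 0.0050, 0.036 and 0.06 in the same settings. The stricter filter left no value for CLDN3, TJP3 or CLDN18, whose counts limit their precision.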
